A study of Mus musculus with 8 samples.

Results

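The 39 genes described here carry hexose into the cell and through glycolysis and the pentose phosphate pathway. They are 5 hexose transporters (*Slc2a1*, *Slc2a3*, *Slc2a5*, *Slc2a6* and *Slc2a9*), ketohexokinase (*Khk*), the enzymes from hexokinase to lactate dehydrogenase, 2 monocarboxylate transporters, pyruvate dehydrogenase and its kinases, the hypoxia-inducible factor gene *Hif1a*, and 4 enzymes of the pentose phosphate pathway. The genes were chosen by symbol, matched to the Ensembl identifiers of the count matrix, and kept where 4 or more libraries held 10 or more counts, which 39 of 39 met. They are 39 of 20153 genes that met this filter, of 55573 listed.

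Microglia, the resident macrophages of the brain, were sorted from mice at postnatal day 60 and sequenced as bulk RNA, 1 library per mouse. Of the 8 mice, 4 were *Smad2/3* fl/fl;*Cx3cr1* Cre mutants, and 4 were controls that the labels call wild-type littermates. The Methods describe control animals as generally carrying Cre with a single floxed allele, so both groups may carry Cre. Cre expressed from the *Cx3cr1* locus recombines floxed genes in microglia and in other macrophages of the brain border, and the sort used tdTomato, CD45 and CD11b, which these macrophages can share. Since these are bulk samples, a lower share of a cell type and less RNA per cell cannot be told apart.

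Hexoses enter cells through facilitative transporters of the SLC2A (GLUT) family and are trapped by phosphorylation. Phosphofructokinase-1 then commits glucose carbon to glycolysis, and its strongest activator is made by the phosphofructokinase-2 isoenzymes. Resting microglia use both oxidative phosphorylation and glycolysis, and they are known for high expression of the fructose transporter gene *Slc2a5*. Hypoxia-inducible factor 1 (HIF-1), a dimer of the products of *Hif1a* and *Arnt*, activates many glycolytic genes.

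The libraries held 35639502 to 41946479 counts on genes. Levels are given as CPM, the counts of a gene scaled to a common library total, with TMM factors that correct for differences in RNA composition, and a call is an adjusted p under 0.05 in edgeR's quasi-likelihood test over all 20153 genes. The labels give a number to each mouse without stating which litter or day it came from. *Smad3* was lower in mutants (log2 fold change -1.33, adjusted p = 0.0429), with mutant 3 at 35.1 CPM against 9.61 to 17.5 in the other mutants, and *Smad2* was not called (-0.34, adjusted p = 0.340). All 4 controls expressed *Xist* (99.5 to 183 CPM) and all 4 mutants expressed the Y-linked *Ddx3y* (9.74 to 59.8 CPM), so sex and genotype cannot be told apart. Summed over 10 marker genes of microglia and brain macrophages, controls held 38049 to 57417 CPM and mutants 15240 to 19612, and 7 of the 10 were called lower. Summed markers of border-associated macrophages were 52.8 to 99.1 CPM in controls and 1632 to 2537 in mutants, with 5 of 7 called higher. Control 1 and mutant 1 had the highest sums of neuron markers (353 and 328 CPM, against 33.3 to 151 in the others) and of oligodendrocyte markers (4331 and 3606 CPM, against 600 to 1967). Summed astrocyte markers were 1312 to 1845 CPM in controls and 177 to 600 in mutants, without overlap, although the median log2 fold change of the 6 was 0.18. Astrocyte and neutrophil markers had 1 call each, *Slc1a3* and *Camp*, both lower. By contrast, 0 of 7 neuron, 0 of 6 oligodendrocyte, 0 of 5 monocyte, 0 of 5 endothelial and 0 of 5 erythroid markers were called. At an unadjusted p under 0.05 these 5 lists had 0, 1, 1, 1 and 0 genes, and DESeq2 called 0, 0, 1, 1 and 0. The part of these cells in the results below was not tested, except where a value is given.

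Of the 39 genes, 9 were lower in mutants, 0 were higher and 30 were not called by edgeR. At an unadjusted p under 0.05, edgeR had 12 lower and 3 higher, and DESeq2 called 12 lower and 1 higher (*Gpi1*). The share called lower was 23.1%, and over all tested genes 7.97% were lower, 4.36% were higher and 12.3% were called in either direction. In 11 of the 39 genes (28.2%) every mutant lay below every control, and in 3 (7.69%) every mutant lay above, against 13% and 9.04% of all tested genes and 22.1% in either direction. The median log2 fold change was -0.01 over the 39 genes and 0.01 over all tested genes. The 9 lower genes were *Slc2a5*, *Pfkfb3*, *Khk*, *Slc16a3*, *Hk3*, *Pdk1*, *Pfkl*, *Slc2a1* and *Hif1a*. They belong to uptake, to phosphorylation, to phosphofructokinase-1 and its control, to lactate export, to the brake on pyruvate dehydrogenase and to HIF-1. Of the 8 enzymes from aldolase to pyruvate kinase 0 were called, and of the 4 enzymes of the pentose phosphate pathway 0. With 12.3% of all tested genes called, lists this short can hold 0 calls without differing from other genes. The 9 genes were each still lower and called in every fit that left out 1 of the 8 mice and in the fit that left out both control 1 and mutant 1.

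**Figure D1:**
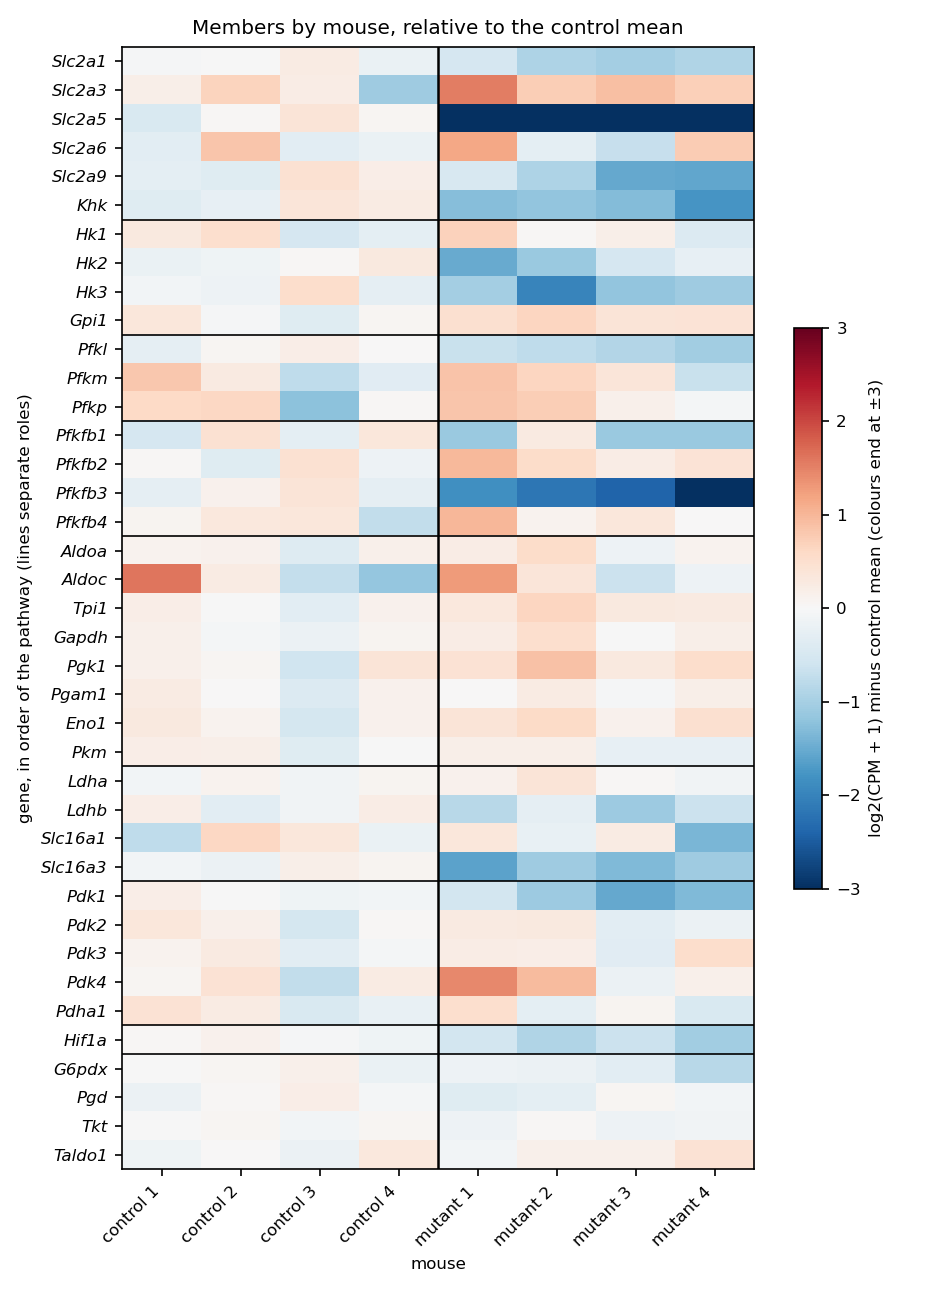
Level of each of the 39 genes (rows, in pathway order, lines separating roles) in each of the 8 mice (columns), as log2(CPM + 1) minus the mean of the 4 controls, with colours ending at 3 either way. *Slc2a5* and *Pfkfb3* are the darkest blue across the mutants, and the block from *Aldoa* to *Pkm* is pale in both groups apart from *Aldoc*, which is high in control 1 and mutant 1.

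**Figure D2:**
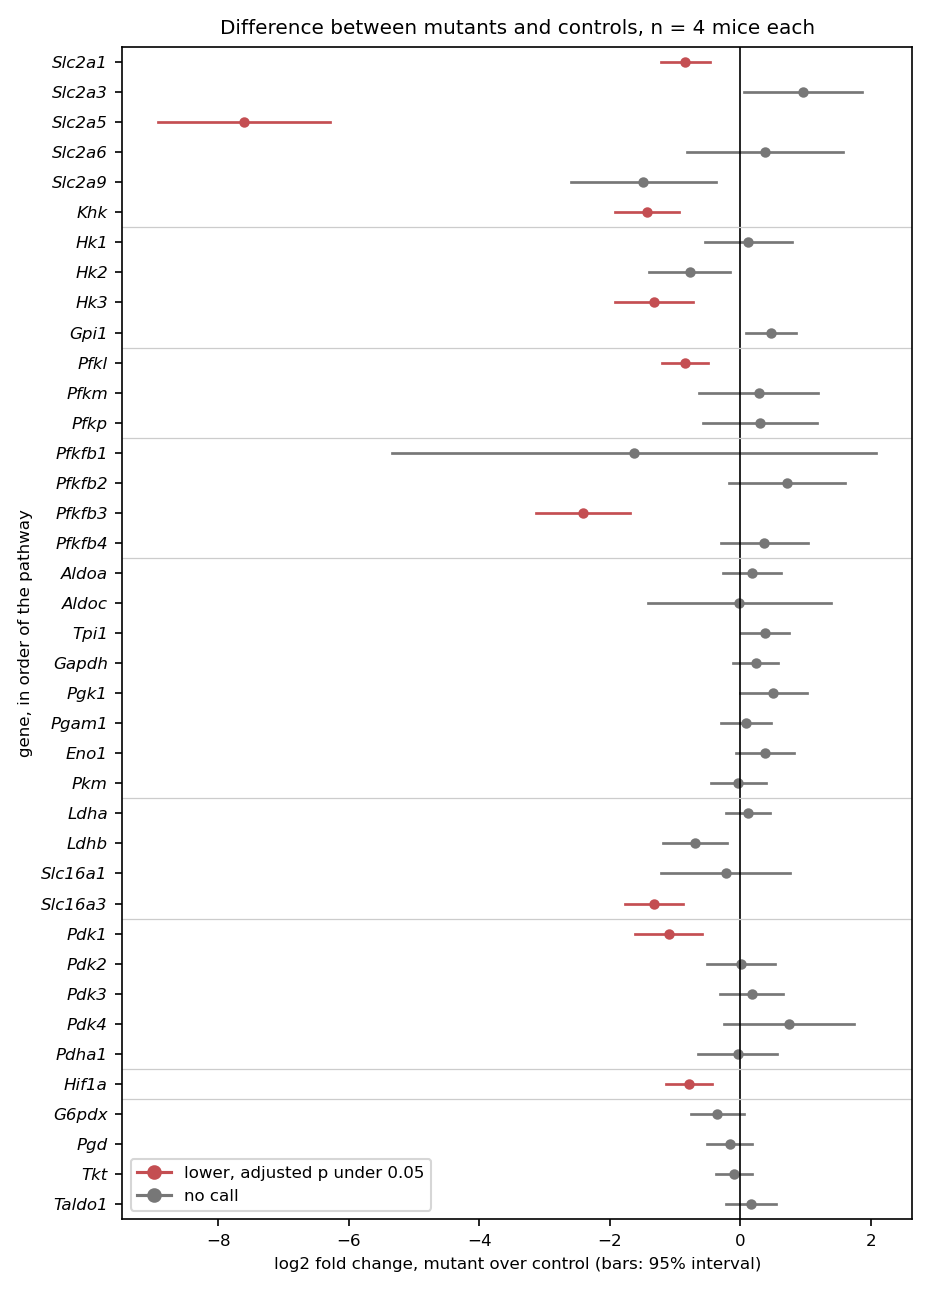
Log2 fold change of mutants over controls (x axis) for the 39 genes in pathway order (y axis), with bars for the 95% interval and 4 mice in each group. The 9 called genes, in red, lie to the left of 0, from -7.60 for *Slc2a5* to -0.78 for *Hif1a*.

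*Slc2a5* encodes GLUT5, a fructose transporter that serves as a marker of microglia, and lies at chr4:150119283-150144169 (mm10). Its level was 582, 818, 1053 and 835 CPM in controls 1 to 4 and 3.35, 9.01, 2.31 and 2.15 CPM in mutants 1 to 4. Every mutant was far below every control, and the lowest control was over the highest mutant by more than the spread of either group. The log2 fold change was -7.60 (SE 0.58, adjusted p = 9.4e-05), which is 194-fold. This was the largest difference among the 39 genes. *Khk* (chr5:30921431-30931248) encodes ketohexokinase, which phosphorylates fructose after it enters the cell. *Khk* was at 62.1, 66.4, 102 and 94.7 CPM in controls and at 32.2, 34.3, 31.5 and 22.6 CPM in mutants, without overlap. It fell 2.70-fold (log2 fold change -1.43, SE 0.22, adjusted p = 0.0032). Of the 3 other fructose and polyol genes tested 0 were called, 0 at an unadjusted p under 0.05 and 0 by DESeq2.

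The window from 250 bases before to 50 bases after the start of *Slc2a5* is shown because this gene had the largest difference. The deleted genes encode Smad factors, and the core Smad motif was searched as CAGAC or, on the other strand, GTCTG. The sequence is from RefSeq (GRCm38.p6), chr4:150119094-150119393, plus strand, 5′ to 3′, with each match in capitals.
*Slc2a5*: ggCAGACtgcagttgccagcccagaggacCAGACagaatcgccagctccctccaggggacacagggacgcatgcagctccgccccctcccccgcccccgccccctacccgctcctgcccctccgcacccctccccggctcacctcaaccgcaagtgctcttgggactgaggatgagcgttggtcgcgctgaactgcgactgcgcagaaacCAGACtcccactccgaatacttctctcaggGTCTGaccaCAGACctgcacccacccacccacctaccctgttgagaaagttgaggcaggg
The window held 5 matches. Of 32851 promoter windows of this length, 49.6% held at least 1 match and 69 (0.21%) held at least 5. The motif was in 6 of the 11 windows of the lower genes (54.5%) and in 18 of the 47 windows of the other genes described here (38.3%). The *Slc2a5* window was chosen by the result of its gene, and binding of Smad factors to it was not tested.

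*Slc2a1* (chr4:119108711-119137983) encodes GLUT1, the widespread basal glucose transporter. Controls were at 105, 108, 128 and 94.5 CPM and mutants at 76.2, 56.7, 52.5 and 57.6 CPM, so that the groups did not overlap although mutant 1 was closer to the controls than the others were. The level fell 1.79-fold (log2 fold change -0.84, SE 0.17, adjusted p = 0.0123). *Slc2a3*, which encodes the high-affinity transporter GLUT3 of neurons, had the opposite direction, with 3.71 to 14.7 CPM in controls and above 14.7 CPM in every mutant, up to 27.6 CPM in mutant 1. The groups did not overlap but the difference of 0.96 (SE 0.40) was not called (adjusted p = 0.152), and mutant 1 was the mutant with the most neuron and oligodendrocyte markers. *Slc2a9*, a urate and hexose transporter, was at 3.41 to 6.72 CPM in controls and 0.911 to 3.01 CPM in mutants without overlap or call (-1.49, SE 0.49, adjusted p = 0.0821), and it was called when mutant 1 was left out (adjusted p = 0.0392). *Slc2a6*, a lysosomal hexose transporter, varied more within the groups than between them (4.28 to 10.8 and 3.06 to 13.8 CPM, difference 0.38, SE 0.53).

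Levels of different genes are compared per kilobase of exon, as CPM per kb, and the shares below are descriptions with no test. In controls *Slc2a5* made up 83.7% to 89.1% of the summed level of the 5 transporters, and in mutants 2.82% to 11.7%. The share of *Slc2a1* went from 9.79% to 14.7% in controls to 69.2% to 78.0% in mutants, although its own level was lower. The sum itself was 277 ± 59.6 CPM per kb in controls and 24.0 ± 5.24 in mutants (mean ± SD, n = 4 each). *Slc2a3* and *Slc2a6* made up 0.501% and 0.698% of the control sum and 10.8% and 9.70% of the mutant sum. Of these 5 transporters, *Slc2a5* had the highest level in all 4 controls and *Slc2a1* in all 4 mutants. *Slc2a8*, an intracellular hexose transporter outside the 39 genes and named after its values were seen, was at 19.8 ± 3.57 CPM per kb in mutants, against 17.3 ± 3.01 for *Slc2a1*, and was above *Slc2a1* in mutants 1 to 3.

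**Figure D3:**
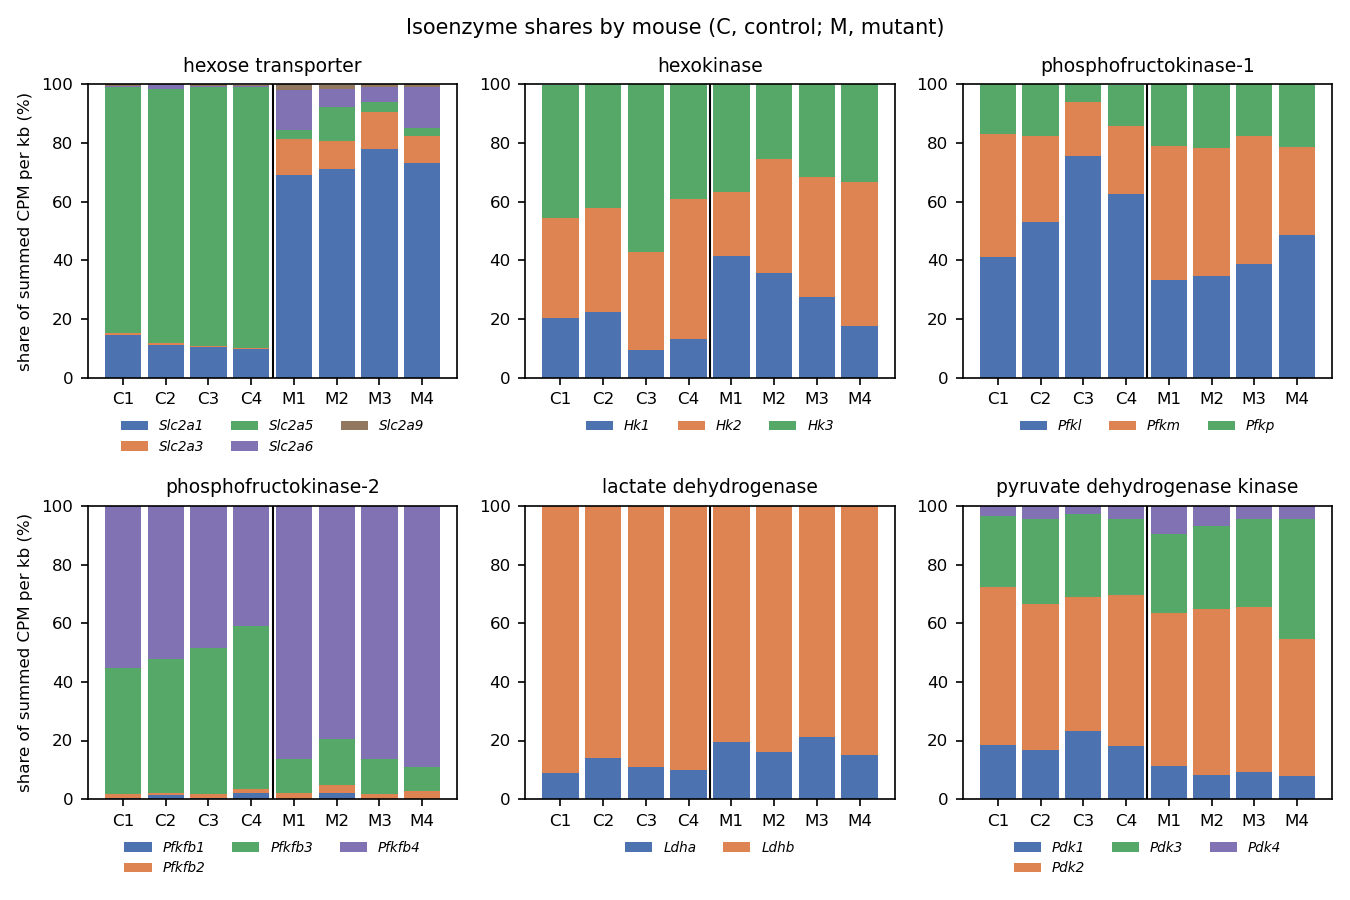
Share of each isoenzyme in the summed CPM per kb of its family (y axis, percent) in each control (C1 to C4) and mutant (M1 to M4) mouse, for 6 families. *Slc2a5* fills 83.7% to 89.1% of the transporter bars in controls and *Slc2a1* 69.2% to 78.0% in mutants, and *Pfkfb4* fills 79.4% to 88.9% of the phosphofructokinase-2 bars in mutants.

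Hexokinases phosphorylate glucose and so trap it in the cell. *Hk3* (chr13:55005985-55021385), the isoenzyme of myeloid cells, was at 99.8, 95.7, 153 and 87.5 CPM in controls and at 51.7, 26.3, 46.5 and 50.3 CPM in mutants. The groups did not overlap, and the level fell 2.50-fold (log2 fold change -1.32, SE 0.26, adjusted p = 0.0121). *Hk2*, the inducible isoenzyme, was at 123, 129, 146 and 173 CPM in controls and 49.0, 65.3, 98.6 and 120 CPM in mutants, without overlap. The mutants were spread more widely than the controls, with mutant 4 just below the lowest control, and the difference of -0.78 (SE 0.27) was not called (adjusted p = 0.0996). It was called without mutant 4 (adjusted p = 0.0492). *Hk1*, the constitutive isoenzyme, overlapped (58.0 to 118 and 62.2 to 135 CPM, difference 0.12, SE 0.29). The summed level of the 3 hexokinases was 63.7 ± 6.14 CPM per kb in controls and 36.9 ± 5.99 in mutants. *Hk3* had the highest mean share in controls (46.0 ± 7.87% of the sum), although in control 4 *Hk2* led (47.7% against 39.2%). In mutants *Hk3* made up 31.7 ± 4.77%. *Hk1* went from 16.3 ± 6.10% to 30.7 ± 10.4% and *Hk2* from 37.7 ± 6.67% to 37.6 ± 11.6%. *Gpi1*, phosphoglucose isomerase, was the other gene of this step to separate the groups, at 131 to 212 CPM in controls and 221 to 264 CPM in mutants (0.47, SE 0.17, adjusted p = 0.104), and 15.8% of its 50-base words also occur in other genes.

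Phosphofructokinase-1 is a tetramer of liver, muscle and platelet subunits. *Pfkl* (chr10:77986947-78010083), the liver subunit, was at 189, 236, 262 and 230 CPM in controls and at 143, 134, 123 and 110 CPM in mutants, with no overlap. It fell 1.80-fold (log2 fold change -0.84, SE 0.15, adjusted p = 0.0078). *Pfkm* (31.8 to 96.5 and 33.8 to 99.4 CPM) and *Pfkp* (42.6 to 156 and 96.8 to 182 CPM) overlapped and were not called, with differences of 0.28 (SE 0.40) and 0.30 (SE 0.39). By subunit, *Pfkl* was at 58.1 ± 14.6% of the summed CPM per kb in controls and 38.7 ± 7.02% in mutants. The shares overlapped, since control 1 was at 41.2% and mutant 4 at 48.7%, and *Pfkm* was highest in mutant 1 and control 1.

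The phosphofructokinase-2 isoenzymes make and break the activator of phosphofructokinase-1, and the product of *Pfkfb3* is the member with the strongest bias to making it. *Pfkfb3* (chr2:11471433-11554077) was at 86.1, 114, 136 and 85.1 CPM in controls and at 28.3, 22.4, 18.7 and 9.88 CPM in mutants. Every mutant was under every control, and the level fell 5.31-fold (log2 fold change -2.41, SE 0.32, adjusted p = 0.0016), which was the second-largest difference among the called genes. *Pfkfb4* was at 40.3 to 85.9 CPM in controls and 68.7 to 137 CPM in mutants and was not called (0.37, SE 0.30, adjusted p = 0.460). Both genes had a like level per kb in controls (13.9 ± 3.23 for *Pfkfb3* and 14.5 ± 4.34 for *Pfkfb4*), and in mutants *Pfkfb3* was at 2.62 ± 1.02 and *Pfkfb4* at 18.7 ± 6.43. As shares of the 4 isoenzymes, *Pfkfb3* went from 42.9% to 55.7% in controls to 8.24% to 15.8% in mutants, and *Pfkfb4* from 40.9% to 55.4% to 79.4% to 88.9%. *Pfkfb2* (0.72, SE 0.39) and *Pfkfb1* were low in both groups, and *Pfkfb1* was at 0 in 3 mutants and 1.58 CPM in mutant 2, against 0.517 to 1.95 CPM in controls (-1.63, SE 1.64, adjusted p = 0.569). Without mutant 2 the remaining mutants were all at 0 and *Pfkfb1* was called (adjusted p = 0.0126), a call that rests on that library.

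**Figure D4:**
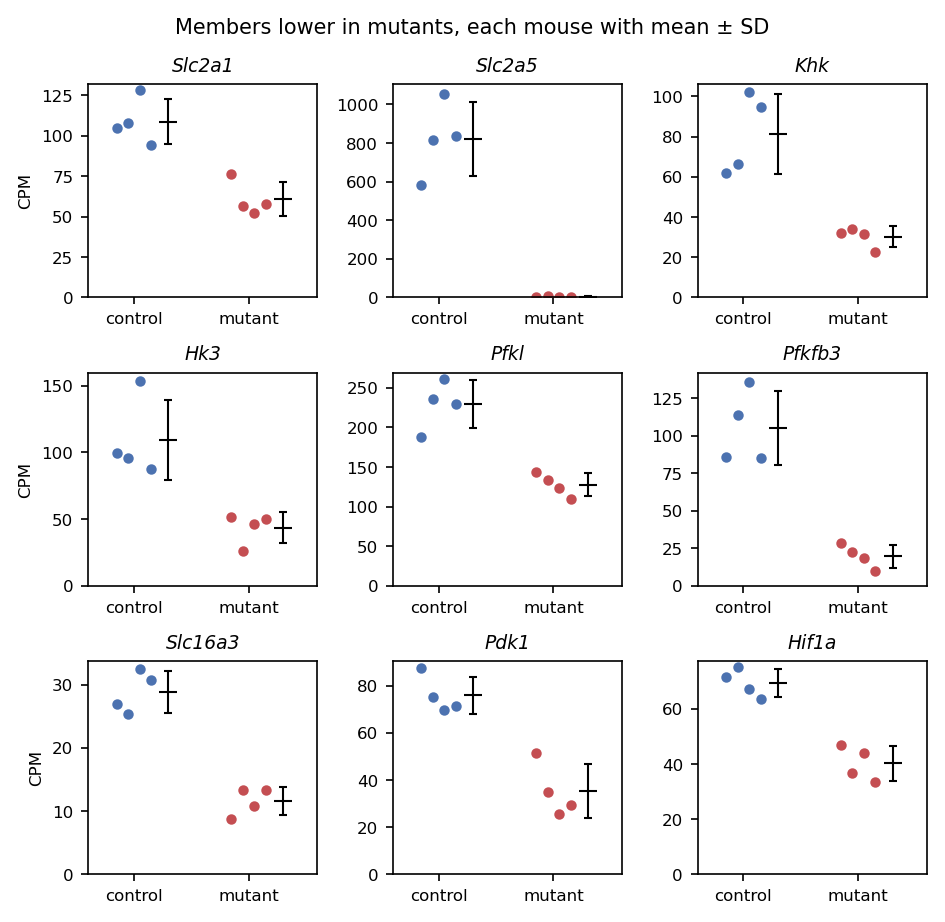
CPM (y axis, from 0, with a scale of its own in each panel) of the 9 called genes in each control (blue) and mutant (red) mouse, with the mean and SD of each group beside the points. The groups do not overlap in any panel, and the *Slc2a5* points of the mutants lie at 2.15 to 9.01 CPM, on the axis at this scale.

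Aldolase to pyruvate kinase, the later steps of the pathway, split the sugar and yield its energy. Their log2 fold changes lay between -0.03 (*Pkm*) and 0.51 (*Pgk1*), 0 of 8 were called, *Tpi1* alone had an unadjusted p under 0.05, and DESeq2 called 0. *Tpi1*, triosephosphate isomerase, was at 230 to 327 CPM in controls and 344 to 444 CPM in mutants, without overlap (0.38, SE 0.16, 95% interval 0.01 to 0.74, adjusted p = 0.165). The intervals were -0.11 to 0.58 for *Gapdh*, -0.26 to 0.62 for *Aldoa*, -0.30 to 0.47 for *Pgam1*, -0.07 to 0.82 for *Eno1* and -0.45 to 0.39 for *Pkm*. A fall as large as that of *Hif1a* (-0.78) lay outside each of these intervals. *Aldoc*, the aldolase of astrocytes, was the most variable member, at 930, 361, 186 and 137 CPM in controls and 739, 394, 195 and 272 CPM in mutants, and its highest values were in control 1 and mutant 1, the libraries with the most neuron and oligodendrocyte markers (difference -0.01, 95% interval -1.42 to 1.39). Per length, *Aldoa* was at 291 ± 46.4 and *Tpi1* at 105 ± 15.5 CPM per kb in controls. *Gapdh* was at 21.6 ± 2.1 CPM per kb. Many of these enzymes have processed pseudogenes, and the share of 50-base words that also occur in transcripts of other genes was 53.9% for *Pgk1*, 36.2% for *Pgam1*, 26.0% for *Eno1*, 25.8% for *Pkm* and 25.1% for *Gapdh*, so their levels are uncertain. Among the 9 called genes the largest such share was 5.74%, for *Hif1a*, followed by 1.54% for *Slc2a1*.

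Lactate dehydrogenase converts pyruvate and lactate into each other, and the subunit encoded by *Ldhb* favours pyruvate. *Ldhb* had the highest level per length of the 39 genes in controls (709 ± 124 CPM per kb, with 438 ± 108 in mutants). It was at 1270, 885, 1017 and 1280 CPM in controls and 617, 913, 514 and 708 CPM in mutants, so that mutant 2 overlapped control 2. The difference of -0.69 (SE 0.21) was not called (adjusted p = 0.0669), was called without mutant 2 (adjusted p = 0.0415), and 21.0% of the 50-base words of *Ldhb* are shared with 1 other gene. *Ldha* was at 267 to 307 CPM in controls and 266 to 372 CPM in mutants (0.12, SE 0.15, adjusted p = 0.649), and its share of the 2 subunits per length was 9.07% to 14.1% in controls and 15.1% to 21.2% in mutants. *Slc16a3* (chr11:120948480-120960868) encodes MCT4, the transporter of lactate export. *Slc16a3* was at 27.0, 25.3, 32.5 and 30.7 CPM in controls and at 8.78, 13.3, 10.8 and 13.3 CPM in mutants. There was no overlap, and the level fell 2.50-fold (log2 fold change -1.32, SE 0.20, adjusted p = 0.0030). *Slc16a1*, which encodes the widespread transporter MCT1, overlapped (9.41 to 26.3 and 5.82 to 21.2 CPM, difference -0.23, SE 0.44).

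Pyruvate dehydrogenase kinases phosphorylate and so inhibit pyruvate dehydrogenase, which sends pyruvate into the mitochondrial cycle. *Pdk1* (chr2:71873224-71903858) was at 87.3, 75.3, 69.6 and 71.5 CPM in controls and at 51.7, 34.9, 25.6 and 29.6 CPM in mutants, without overlap and with mutant 1 the highest mutant. It fell 2.14-fold (log2 fold change -1.10, SE 0.23, adjusted p = 0.0140). The other kinases and the enzyme subunit *Pdha1* were not called, with log2 fold changes of 0.01 for *Pdk2*, 0.17 for *Pdk3*, 0.75 (SE 0.44) for *Pdk4* and -0.04 for *Pdha1*. *Pdk2* was the leading kinase in both groups, at 50.3 ± 3.44% of the summed CPM per kb in controls and 53.1 ± 4.69% in mutants, while *Pdk1* went from 19.2 ± 2.84% to 9.07 ± 1.51%.

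*Hif1a* (chr12:73901375-73947530) encodes the oxygen-regulated subunit of HIF-1. It was at 71.5, 75.2, 67.3 and 63.6 CPM in controls and at 46.9, 36.8, 44.1 and 33.4 CPM in mutants, with no overlap. The level fell 1.72-fold (log2 fold change -0.78, SE 0.16, adjusted p = 0.0117), the smallest difference of the 9, and part of its exons overlaps *Gm49321* on the same strand and *Gm15283* on the other. HIF-1 acts largely through the stability of its protein, which RNA counts do not measure. Of 12 other regulators of glycolytic genes, 3 were lower (25%, against 7.97% of all tested genes) and 0 higher. Both at an unadjusted p under 0.05 and by DESeq2, 5 were lower and 0 higher. *Mlxipl*, which encodes the sugar-sensing factor ChREBP, was at 58.8 to 105 CPM in controls and 1.06 to 5.91 CPM in mutants (log2 fold change -4.47, SE 0.52, adjusted p = 0.00087). *Txnip*, a target of ChREBP whose product restrains glucose uptake, was at 998, 1103, 1972 and 744 CPM in controls and 364, 272, 436 and 282 CPM in mutants (-1.83, SE 0.31, adjusted p = 0.0056). *Vhl*, which encodes the ligase subunit that marks HIF-1α for degradation, was at 97.1 to 116 CPM in controls and 25.0 to 39.8 CPM in mutants (-1.80, SE 0.18, adjusted p = 0.00041). RNA of *Hif1a* and of *Vhl* was thus lower in the same mice. *Arnt*, named after its values were seen as the partner of *Hif1a*, was at 23.6 to 52.2 CPM in controls and 18.0 to 27.2 CPM in mutants and was not called (-0.80, SE 0.26, adjusted p = 0.0764).

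Of 8 HIF targets outside glycolysis, 1 was lower and 0 were higher. At an unadjusted p under 0.05 there was 1 lower and 1 higher, and DESeq2 called 1 in each direction. *P4ha1*, a collagen prolyl hydroxylase, was the lower one, at 226 to 267 CPM in controls and 62.6 to 133 CPM in mutants (-1.34, SE 0.22, adjusted p = 0.0046). *Vegfa*, named after its values were seen, was at 5.65 to 9.23 CPM in controls and higher in every mutant, up to 13.7 CPM, and was not called (0.64, SE 0.24, adjusted p = 0.111). In the rest of the pathway 1 of 14 other glycolytic and gluconeogenic genes was lower, *Eno3*, which encodes the muscle enolase, at 28.4 to 61.8 CPM in controls and 5.47 to 11.4 CPM in mutants (-2.23, SE 0.34, adjusted p = 0.0031). Calls were 0 of 5 for other hexose transporters, 0 of 11 for glycogen metabolism, 0 of 7 for other pentose phosphate genes and 0 of 10 for the entry of pyruvate into mitochondria. At an unadjusted p under 0.05 these 4 lists had 0, 0, 1 and 2 genes, and DESeq2 called 0, 0, 1 and 1. Together, 70 of the 82 further pathway genes listed were tested, of which 5 were lower and 0 higher. The share lower was 7.14%, against 7.97% of all tested genes. At an unadjusted p under 0.05 there were 9 lower and 2 higher, and DESeq2 called 9 lower and 1 higher.

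**Figure D5:**
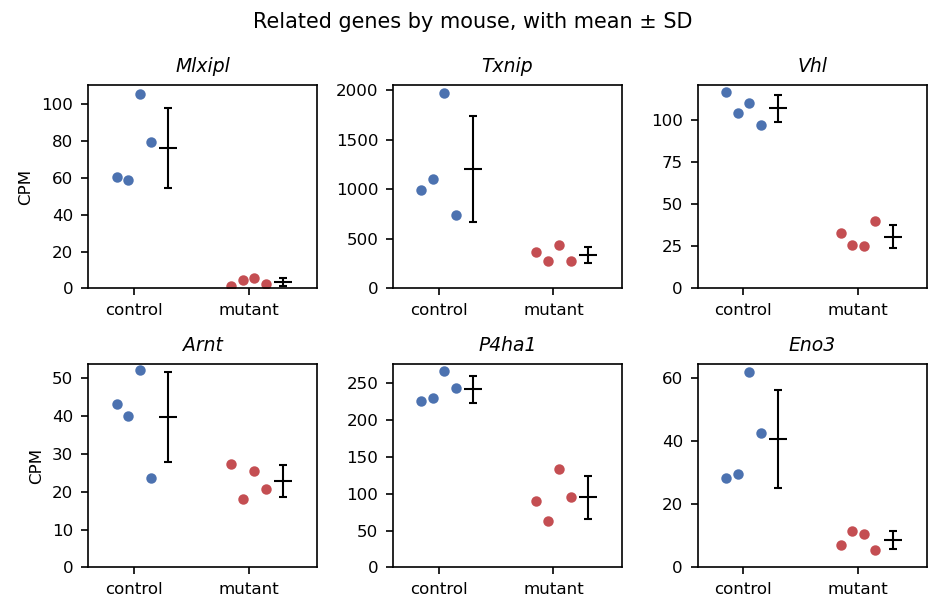
CPM (y axis, from 0, with a scale of its own in each panel) of 6 related genes in each control (blue) and mutant (red) mouse, with the mean and SD of each group. *Mlxipl*, *Txnip*, *Vhl*, *P4ha1* and *Eno3* separate the groups, while in *Arnt*, which was not called, control 4 (23.6 CPM) lies within the range of the mutants.

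Promoter windows of *Slc16a3*, *Pdk1* and *Khk*, 3 of the 9 lower genes, are shown as examples. The core of the hypoxia response element was searched as ACGTG or GCGTG on both strands, and it is part of the E-box CACGTG, which ChREBP and other factors also bind. The 3 windows are from RefSeq (GRCm38.p6), on the plus strand, 5′ to 3′, with matches in capitals, at chr11:120948817-120949116, chr2:71872974-71873273 and chr5:30921309-30921608 in the order given.
*Slc16a3*: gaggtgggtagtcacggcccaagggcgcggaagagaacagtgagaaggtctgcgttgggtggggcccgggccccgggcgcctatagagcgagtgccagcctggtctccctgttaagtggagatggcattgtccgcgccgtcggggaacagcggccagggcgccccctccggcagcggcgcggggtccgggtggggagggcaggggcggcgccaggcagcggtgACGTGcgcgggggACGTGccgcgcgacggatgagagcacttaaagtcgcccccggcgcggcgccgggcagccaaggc
*Pdk1*: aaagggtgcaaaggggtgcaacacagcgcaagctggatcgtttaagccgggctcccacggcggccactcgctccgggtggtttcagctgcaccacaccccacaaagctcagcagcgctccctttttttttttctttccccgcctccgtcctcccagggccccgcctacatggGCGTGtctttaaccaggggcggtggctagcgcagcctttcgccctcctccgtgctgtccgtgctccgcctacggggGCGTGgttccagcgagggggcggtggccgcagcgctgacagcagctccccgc
*Khk*: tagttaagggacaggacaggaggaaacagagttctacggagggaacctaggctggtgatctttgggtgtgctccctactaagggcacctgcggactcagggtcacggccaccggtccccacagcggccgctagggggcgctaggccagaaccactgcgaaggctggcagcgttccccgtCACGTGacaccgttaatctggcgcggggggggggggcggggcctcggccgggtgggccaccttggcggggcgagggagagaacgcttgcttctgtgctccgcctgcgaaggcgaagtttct
These windows are placed by RefSeq starts, which can differ from the gene starts given above, and the *Slc16a3* window lies wholly downstream of the start of that gene in GENCODE. The *Slc16a3* window held 2 ACGTG cores, the *Pdk1* window shown 2 GCGTG cores, and the *Khk* window 1 E-box, which counts on both strands. A second *Pdk1* window, at chr2:71874654-71874953 and not shown, held 0 cores. Over all 32851 windows 43.8% held a core. It was in 9 of the 11 windows of the lower genes, which is 8 of 9 genes with *Slc2a5* the gene that held no core, and in 35 of the 47 windows of the other genes described here, which is 26 of 29 genes. The E-box was in 7.15% of all windows, in 3 of the 11 and in 5 of the 47. The PU.1 motif GAGGAAGT, bound by a factor of myeloid cells, was in 3.20% of all windows and in 0 of the 58 windows of these genes, and TATAAA was in 13.6% of all windows, in 1 of the 11 and in 1 of the 47. Windows matched 38 of the 39 genes. The 3 windows shown were chosen by the results of their genes, and binding of HIF-1 or ChREBP to them was not tested.

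The pentose phosphate pathway makes NADPH and ribose from glucose 6-phosphate. Of its 4 enzymes 0 were called, 0 had an unadjusted p under 0.05 and DESeq2 called 0. *G6pdx*, the X-linked dehydrogenase of the first step, was at 80.6 to 105 CPM in controls and 52.1 to 83.6 CPM in mutants (-0.35, 95% interval -0.76 to 0.05). *Pgd* was at 95.2 to 124 and 84.0 to 112 CPM (-0.16, interval -0.51 to 0.18). *Tkt*, transketolase, was at 190 to 210 and 181 to 208 CPM (-0.10, interval -0.37 to 0.18), and *Taldo1*, transaldolase, at 193 to 272 and 208 to 298 CPM (0.17, interval -0.21 to 0.55). A fall as large as that of *Hif1a* (-0.78) lay outside each of the 4 intervals, with the bound of *G6pdx* close to it. Summed over the 4 genes, controls held 589 to 666 CPM and mutants 557 to 639, overlapping ranges. The transporters and *Khk* together held 767 to 1305 CPM in controls and 108 to 156 in mutants. Most of the fall in this second sum was *Slc2a5*, at 582 to 1053 CPM in controls and 2.15 to 9.01 CPM in mutants.

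Of the 39 genes 5 are X-linked (*Pfkfb1*, *Pgk1*, *Pdk3*, *Pdha1* and *G6pdx*), of which 0 were called, and the 9 lower genes are autosomal. With X and Y genes left out of scaling and fit, the 9 were again lower and 0 others were called. This fit cannot separate sex from genotype, since every control expressed *Xist* and every mutant a Y-linked gene. An effect of sex on autosomal genes was not tested. With a score of neuron, astrocyte and oligodendrocyte markers as a covariate, 9 were lower as well. The score includes *Slc1a3*, which was itself called lower in mutants. Summed over all 39 genes, controls held 6481 to 7932 CPM and mutants 5043 to 6799, with mutant 2 the highest mutant. Within this sum *Slc2a5* and *Ldhb*, which was not called, fell most in CPM.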

How the data were processed

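Bulk RNA of sorted microglia from 4 mutant and 4 control mice was analysed. Reads were aligned to mm10 with Rsubread by the authors and assigned to genes with featureCounts, and the deposited counts are raw and not normalized. Versions and gene annotation of these steps are not given in the sources used here. The labels describe single-end Nextera XT libraries and the Methods paired-end NEBNext Ultra II libraries, unstranded in both sources, so overlapping genes on opposite strands cannot be told apart. Since the *Smad2/3* data are placed elsewhere by the Methods, these libraries were identified with that experiment by their labels. A further deposited table holds the authors' own DESeq2 comparison (fold changes, p-values and adjusted p-values), which was not used. Every column of per-sample counts was used.

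Genes were kept with 10 or more counts in 4 or more libraries. EdgeR 4.0.16 (R 4.3.3) gave TMM factors, dispersions and quasi-likelihood tests of mutants over controls without a block, with p-values adjusted by Benjamini and Hochberg's method over all 20153 genes. Fold changes, standard errors and 95% intervals come from this fit. Libraries held 35639502 to 41946479 counts and the common biological coefficient of variation was 0.542, and the spread between mice set the precision of all but the lowest genes. P-values set the difference between the groups against the spread between these mice, in groups that also differ in sex. Of 55573 identifiers, 55480 matched GENCODE M21 (GRCm38), which gave coordinates and exon lengths. A second identifier with the symbol *Aldoa* was not used. Shared sequence was measured in words of 50 bases. On simulated counts with 200 of 19366 genes changed by 2 on the log2 scale, edgeR recovered 81.5%, and 4.68% of its 171 calls were false, against 92.5% and 30.2% of 265 calls for DESeq2.

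The 39 genes and all lists were chosen with earlier results of these data known. The genes that could be named were the 39, the called genes of the pathway lists, the highest marker genes, and *Smad2*, *Smad3* and sex-linked genes, and the exceptions are stated where they occur. Alternatives were DESeq2 1.42.0, RLE factors, library totals, no filter, a filter of 10 or more counts in every library, a block for the replicate number, each mouse left out, a score of 19 neural markers as a covariate, no X and Y genes, and for shares the longest transcript as length. Leaving out control 1 and mutant 1 together was added after seeing the data. Promoter windows are from RefSeq (GRCm38.p6). Tables and plots were made with Python 3.11.15, pandas 2.3.3, numpy 2.4.6 and matplotlib 3.10.9.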

Additional observations from a re-analysis of the deposited data

Results flagged for a closer look

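Among 78 groups of 4 mice (39 genes in each of the 2 groups), 4 held a mouse that stood far from the other 3, and chance alone gives about 1 in 20 such groups. *Slc2a6* was at 10.8 CPM in control 2 and at 4.28 to 4.76 CPM in the other controls. *Aldoa* was at 645 CPM in control 3 and at 907 to 928 CPM in the others. *Tpi1* was at 444 CPM in mutant 2 and at 344 to 353 CPM in the other mutants. *Pfkfb1* was at 1.58 CPM in mutant 2 and at 0 in the other mutants.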

How the results depend on the processing

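The 9 lower genes kept their direction and their call in every alternative, each mouse left out included. With the longest transcript as length, differences between groups in isoenzyme shares moved by less than the spread between mice, but the shares themselves could move by more, as from 18.0% to 24.9% for *Ldha* in mutants. *Hk1* went from 16.3% to 25.5% in controls and from 30.7% to 43.6% in mutants, where its mean share became the highest of the hexokinases. With DESeq2, all tested genes higher in mutants numbered 2089 (878 with edgeR) and all tested genes lower in mutants 2662 (1607 with edgeR), and 1 of the 39 genes was higher. Without 1 mouse in turn the former ran from 525 (without control 2) to 1024 and the latter from 1005 (without control 3) to 1587. Library totals moved the median of all genes to 0.13 on the log2 scale. The members whose small difference changed sign were not called in any of these fits. These were *Aldoc* with RLE factors (0.0067), library totals (0.10), the replicate block (0.21) and both libraries with the most neural RNA left out (0.35), *Pkm* (0.085), *Pdha1* (0.066) and *Tkt* (0.022) with library totals, the Pdk2 log2 fold change with the neural score (-0.089), and *Slc2a6* without both libraries (-0.16). With 1 mouse left out the differences ran from -0.039 to 0.82 for *Slc2a6*, -0.10 to 0.31 for *Hk1*, -0.49 to 0.81 for *Aldoc*, -0.033 to 0.18 for *Pgam1*, -0.14 to 0.039 for *Pkm*, -0.44 to 0.044 for *Slc16a1*, -0.14 to 0.13 for *Pdk2* and -0.26 to 0.12 for *Pdha1*. The cause of these changes was not tested. Same-numbered mice correlated at 0.018 to 0.166 in their deviations from the group means. The same-number pairing had the highest mean correlation of the 24 possible, and 3 of 4 controls correlated best with their own number, a hint of pairing from the data. The labels name nothing that the numbers share and the pair at 0.018 showed little correlation, so the numbers were not taken as pairs. With the replicate block 2383 genes were called, 2001 of them in common with the 2485 called without it, and 10 of the 39 genes were lower (*Hk2* in addition). The 4 mice a group, all of 1 sex in each, and genes that share sequence with pseudogenes limit these values.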
